A study of Mus musculus with 39 samples.

Results

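The livers described here came from B6C3F1 mice, the first-generation cross of a C57BL/6 mother and a C3H father. One group had spent 2 hours in reduced oxygen (labelled hypoxia), and the other were its controls, which the sample names call vehicle and the treatment field calls control. RNA from 1 liver lobe was read on Affymetrix arrays, 1 array per sample. The 16 liver arrays are part of a series of 39 arrays, and each group carries the replicate numbers 1 to 8. The replicates 1 to 4 and the replicates 5 to 8 form the 2 sets compared here, chosen by the replicate number in the sample name, with 4 control and 4 hypoxia arrays in each set. Both groups of both sets were killed by cervical dislocation under ketamine and acepromazine anaesthesia. The oxygen level, the vehicle, the age and sex of the mice and the reason for the 2 sets are not given in the sources used here. The question is which liver genes answered reduced oxygen in the same way in both sets, and which answered differently.

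Cells short of oxygen stabilise hypoxia-inducible factors, which bind next to genes for glycolysis, blood vessel growth and red cell production and raise their transcription. In the intact animal the liver also receives adrenal glucocorticoids and catecholamines during such a challenge, and these hormones act on many of the same genes. Hepatocytes further make the acute phase proteins, secreted when cytokines such as interleukin-6 reach the liver, and the resident macrophages of the liver, the Kupffer cells, are a source of such cytokines.

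A response here is the mean of the hypoxia arrays minus the mean of the control arrays of 1 set, in log2 units of intensity, and the difference between the sets is the response in replicates 5 to 8 minus the response in replicates 1 to 4. Of 18193 genes with a probe set of their own name, 12735 passed the filter on dim genes and were tested with limma. In replicates 1 to 4, 609 genes rose (4.78% of those tested) and 975 fell (7.66%) at an adjusted p under 0.05. In replicates 5 to 8, 369 rose (2.9%) and 850 fell (6.67%). The difference between the sets passed the same threshold for 0 genes (0%), with a smallest adjusted p of 0.125 and 1272 genes at an unadjusted p under 0.05, of which 593 had a higher value in replicates 5 to 8 (4.66%) and 679 a lower one (5.33%). In other analyses of the same contrast, quantile normalization called Taok3, and without hypoxia replicate 3 the test called 2 genes (Phf8 and Taf2), without control replicate 1 it called Mt1, and without hypoxia replicate 7 or control replicate 6 it again called Taok3.

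A missed threshold does not show that 2 responses are alike, so the 95% confidence interval of the difference was read instead. It lay within 2-fold either way for 12235 genes (96.1%) and within 1.5-fold for 9615 (75.5%), around a median standard error of 0.146. The responses of the 2 sets, which share no array, correlated across genes with r = 0.716 and rho = 0.503, given as a description because genes are not independent. Of the genes called in both sets, 615 moved in the same direction and 0 in opposite directions. A further 969 genes were called only in replicates 1 to 4, of which 834 had a response of the same sign in replicates 5 to 8, and 604 only in replicates 5 to 8, of which 521 had the same sign in replicates 1 to 4. A call in 1 set only does not show that such a gene differs between the sets, and the difference was called for none of them.

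The sets did differ in level. Gene levels of the control arrays differed between the sets for 3434 genes (27%) and those of the hypoxia arrays for 4953 (38.9%). Array medians were 5.21 to 5.26 in replicates 1 to 4 and 5.31 to 5.33 in replicates 5 to 8, on the log2 scale. The labels name no batch, so the set cannot be told apart from anything else that changed between the numbers. A response is taken within a set, where such an offset cancels only if it acted equally on control and hypoxia arrays. The 30th percentiles of the arrays were 4.15 to 4.23 in replicates 1 to 4 and 4.28 to 4.30 in replicates 5 to 8. The 90th percentiles were 9.07 to 9.18 and 8.88 to 8.97, so this range was narrower in replicates 5 to 8. Such a narrowing does not cancel within a set. Quantile normalization gives all arrays the same distribution. With it, 1553 genes were called in replicates 1 to 4 and 1131 in replicates 5 to 8, against 1584 and 1219 without it. The difference between the sets was then called for 1 gene. The part of the narrowing in the response of any single gene was not tested. Hepatocyte markers had a mean log2 intensity of 13.58 to 13.87 over the 16 arrays. Hypoxia replicate 3 stood apart, with deviations from its own group that had an SD of 0.267 across genes, against 0.105 to 0.212 for the other 15 arrays.

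**Figure D1:**
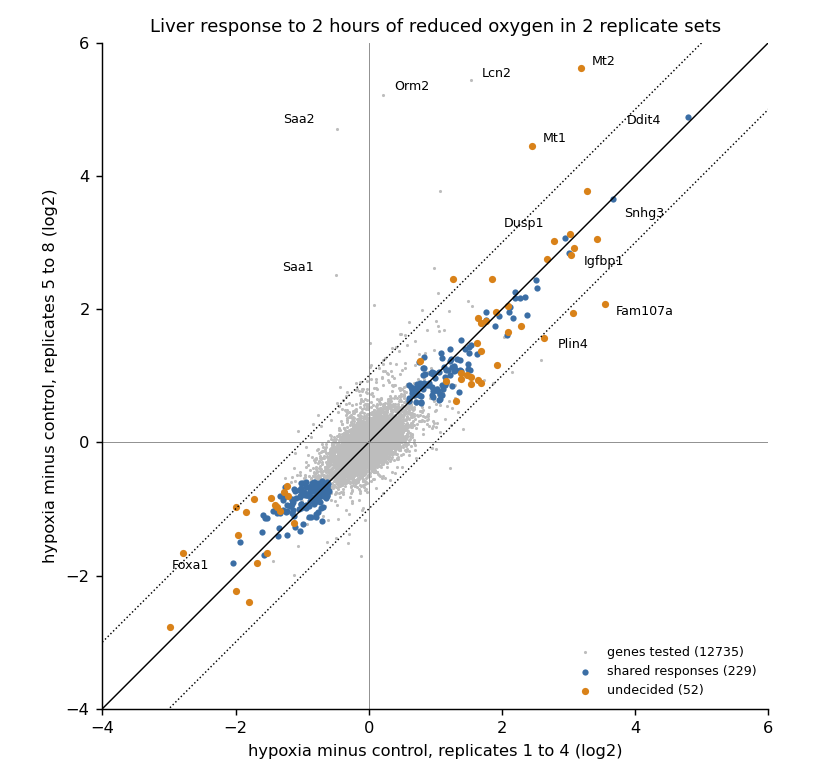
Response to reduced oxygen of each liver gene in replicates 1 to 4 (horizontal axis) and in replicates 5 to 8 (vertical axis), both as hypoxia minus control in log2 units. The solid line marks equal responses and the dotted lines a 2-fold difference. The 229 shared responses (blue) lie between the dotted lines by their definition, from Foxa1 at the lower left to Ddit4 at the upper right. Saa2, Orm2 and Lcn2 lie far above the solid line and Plin4 and Fam107a below it.

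A response was counted as shared when both sets called it in the same direction, both by at least 1.5-fold, and the interval of the difference lay within 2-fold either way. Without the condition on the interval there were 281 genes. Of these, 176 had the larger estimate in replicates 1 to 4 and 105 in replicates 5 to 8. All the conditions held for 229 genes, of which 101 rose (0.793% of genes tested) and 128 fell (1.01%). The shared rises had median responses of 1.12 in replicates 1 to 4 and 1.06 in replicates 5 to 8, and the shared falls medians of -0.89 and -0.81. For 209 of the 229, the hypoxia and control arrays did not overlap in either set, which was so for 790 genes (6.2%) of all those tested. The closeness of the medians and the lack of overlap follow in part from the definition. For 90 of the 229 the interval lay even within 1.5-fold. Control levels of the shared genes were not always alike. They differed between the sets for 12 of the 101 shared rises and for 48 of the 128 shared falls. Of these 48, 47 were lower in replicates 5 to 8. Over all genes tested, control levels differed for 3434 (27%), 2341 of them lower in replicates 5 to 8. At the edge of the definition, Ifrd1 was counted with an interval reaching 0.99 log2 units from 0, and Fzd5 was not, with one reaching 1.004.

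Ddit4, an inhibitor of the growth kinase mTORC1 that is induced by low oxygen, glucocorticoids and other stress, and Snhg3, a noncoding RNA that hosts small nucleolar RNAs, led the shared rises. The 250 bases before their start sites are shown because both genes answered with nearly the same size in both sets. They come from RefSeq (GRCm38) and read 5′ to 3′ on the gene's own strand, which is the minus strand for both. Ddit4 lies at chr10:59951771-59952020 and Snhg3 at chr4:132353687-132353936, and the capitals mark ACGTG or GCGTG on either strand, the cores of elements that hypoxia-inducible factors can bind.
Ddit4: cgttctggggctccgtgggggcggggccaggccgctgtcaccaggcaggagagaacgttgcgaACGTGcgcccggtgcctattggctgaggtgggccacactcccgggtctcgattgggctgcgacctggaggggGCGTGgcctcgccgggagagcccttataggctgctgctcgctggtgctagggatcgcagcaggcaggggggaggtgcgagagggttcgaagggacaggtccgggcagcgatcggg
Snhg3: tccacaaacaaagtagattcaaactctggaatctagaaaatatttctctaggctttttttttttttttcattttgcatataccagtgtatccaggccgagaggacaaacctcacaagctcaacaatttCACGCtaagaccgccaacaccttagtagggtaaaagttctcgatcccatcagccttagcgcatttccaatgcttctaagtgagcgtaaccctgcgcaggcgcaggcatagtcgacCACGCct

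The Ddit4 window held ACGTG 187 bases and GCGTG 115 bases before the start, both on the gene's strand, and the Snhg3 window held GCGTG on the opposite strand at 122 and 7 bases. AGAACA (bound by the glucocorticoid receptor), TGACGTCA (bound by CREB) and TGACTCA (bound by AP-1) were not found in either window. The table of windows matched 10256 of the genes tested, 81 of the 101 shared rises and 99 of the 128 shared falls, some with several windows. ACGTG was in 16.6% of all 32851 windows, in 20.9% of those of the genes tested, in 25.7% of those of shared rises and in 19.1% of those of shared falls. GCGTG was in 28.2%, 42.1%, 54% and 36.6% of the same windows, AGAACA in 16.1%, 11.5%, 14.2% and 7.63%, TGACGTCA in 1.55%, 2.37%, 5.31% and 2.29%, and TGACTCA in 4.46%, 3.53%, 4.42% and 3.82%. Both strands were searched, and ACGTG on 1 strand overlaps ACGTG on the other wherever CACGTG occurs. These shares are descriptions of letters in a window and were not tested.

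In the control livers of replicates 1 to 4, Ddit4 measured 6.41, 6.53, 6.79 and 5.78 on the log2 scale, and in the hypoxia livers 11.10, 10.71, 11.81 and 11.09. In replicates 5 to 8 the controls measured 6.88, 6.73, 7.00 and 7.21, and the hypoxia livers 11.54, 12.09, 11.66 and 12.06. Every hypoxia array stood far above every control array, and the rise was 27.9-fold in the first set and 29.5-fold in the second. The responses were 4.80 ± 0.22 and 4.88 ± 0.22 (± SE), and their difference was 0.08 with an interval of -0.58 to 0.74.

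Snhg3 measured 5.93, 5.54, 6.29 and 5.80 in the controls of replicates 1 to 4 and 9.63, 9.55, 9.46 and 9.62 under reduced oxygen. In replicates 5 to 8 it measured 5.52, 5.65, 5.49 and 5.78 in controls and 9.46, 8.79, 9.48 and 9.33 under reduced oxygen. Hypoxia replicate 6 was the lowest of the 8 hypoxia arrays, and still stood clear of all controls. The rises of 12.8-fold and 12.6-fold differed by -0.02 log2 units (interval -0.47 to 0.43).

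**Figure D2:**
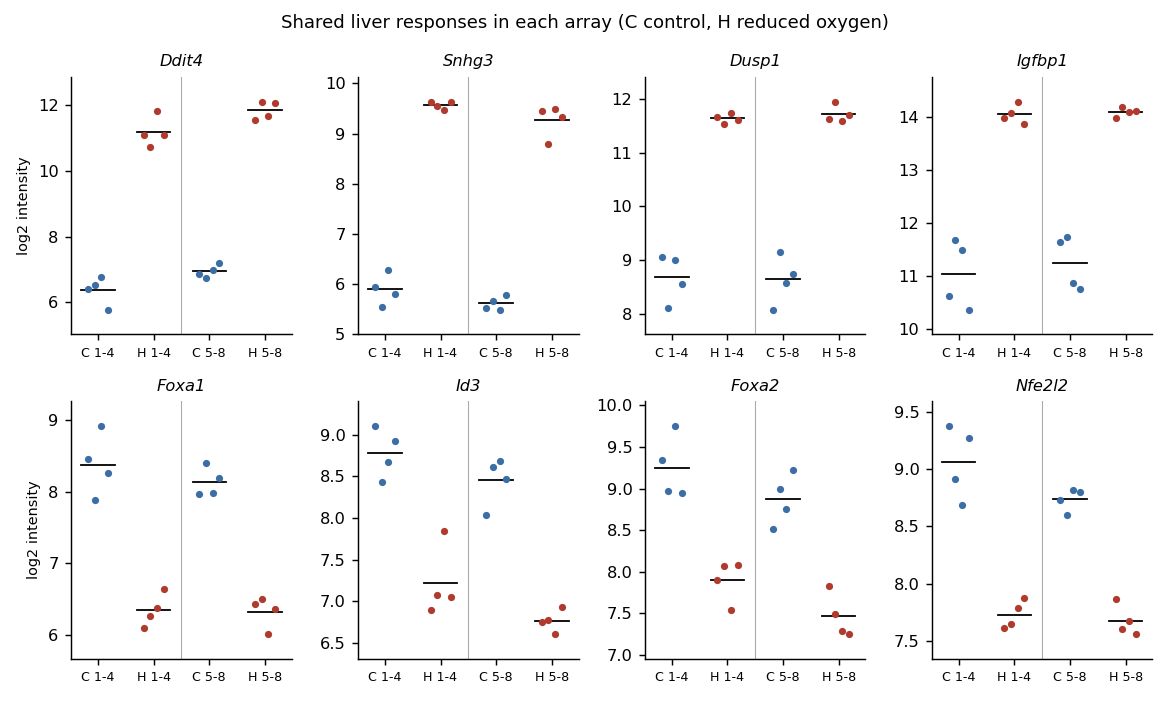
Log2 intensity of 4 shared rises (upper row) and 4 shared falls (lower row) in each of the 16 liver arrays, control (C, blue) and reduced oxygen (H, red), by replicate set, with a line at each mean of 4 arrays. No hypoxia array overlaps a control array of its set in any of the 8 panels, for example Ddit4 at 10.71 to 12.09 against 5.78 to 7.21.

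The next shared rises were genes of stress signalling and hormone response. Dusp1, a phosphatase that switches off MAP kinases, rose 7.73-fold and 8.41-fold. Igfbp1, a protein that hepatocytes secrete and that binds insulin-like growth factors, rose 8.07-fold and 7.2-fold from controls that spread between 10.36 and 11.72. Its place among the shared genes depended on the analysis: the interval of -0.93 to 0.60 left 2-fold in 9 of 26 alternative analyses. Sgk1, a kinase induced by corticosteroids, rose 4.57-fold and 4.79-fold, and Cebpd, a transcription factor of the acute phase, 5.1-fold and 4.53-fold. Trp53inp1, a stress protein of the p53 network, rose 5.76-fold and 4.97-fold, and its control level was 0.43 higher in replicates 5 to 8 (adjusted p = 0.042 by limma).

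Tcim rose 5.68-fold and 5.44-fold, and Rasgef1b, a guanine nucleotide exchange factor, 4.36-fold and 4.1-fold. Tfrc, the transferrin receptor that brings iron into cells, rose 4.82-fold and 4.51-fold, although hypoxia replicate 4 at 10.25 lay below the other 3 hypoxia arrays of its set at 10.85 to 10.96. Rrm2, a subunit of ribonucleotide reductase, rose 4.59-fold and 4.51-fold, and its interval of -0.84 to 0.79 left the definition in 12 of 26 alternatives. Fos, part of the AP-1 transcription factor, rose 4.29-fold and 3.88-fold with the hypoxia arrays between 5.74 and 7.36 and all controls at 4.80 or below.

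The shared falls were led by Foxa1, a pioneer transcription factor of hepatocytes. It measured 8.45, 7.88, 8.91 and 8.27 in controls of replicates 1 to 4 and 6.10, 6.26, 6.37 and 6.64 under reduced oxygen. In replicates 5 to 8 controls measured 7.97, 8.40, 7.99 and 8.20, and hypoxia arrays 6.42, 6.50, 6.01 and 6.35. The groups did not overlap, and Foxa1 was lower by 4.1-fold and 3.52-fold, with a difference of 0.22 (interval -0.31 to 0.75). Its relative Foxa2 was lower by 2.56-fold and 2.65-fold, with a difference of -0.05 (interval -0.62 to 0.52).

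Id3, an inhibitor of helix-loop-helix factors and a target of BMP signalling, fell 2.96-fold and 3.22-fold. Nfe2l2, which encodes the oxidative stress regulator NRF2, was 2.52-fold and 2.08-fold lower. A second, dimmer Nfe2l2 probe set (mean level 5.53 against 8.30) gave 0.82 and 0.40 in the opposite direction. The mean of both was not called in either set (adjusted p = 0.119 and 0.0600 by limma), so the fall rests on 1 probe set. Cks2, a small subunit of cyclin-dependent kinases, fell 2.55-fold and 2.43-fold with one of the narrower intervals, -0.25 to 0.38. Sox18, an endothelial transcription factor, fell 2.33-fold and 2.62-fold, and Mid1ip1, an activator of fat synthesis, 2.15-fold and 2.41-fold, with hypoxia replicate 4 (8.56) above control replicate 2 (8.51) in the first set.

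Of the remaining leading falls, Prkd3 (a protein kinase D), the zinc finger genes Zfp866 and Zfp760, and Depdc7 had point estimates that were larger in replicates 1 to 4 on their named probe sets. For Prkd3, 2 of the other 3 probe sets went the other way, with -0.42 and -0.77 and with -0.70 and -1.06, and the mean of its probe sets gave a difference of 0.002. Prkd3 fell 2.88-fold and 2.19-fold, Zfp866 3.81-fold and 2.82-fold, and Depdc7 2.6-fold and 2.08-fold, each with an interval that included 0. Zfp760 fell 3-fold and 2.14-fold, and its interval of 0.12 to 0.85 excluded 0 but stayed within 2-fold (adjusted p = 0.4 by limma). Its hypoxia arrays lay at 4.52 to 5.16 in the first set and 4.66 to 5.07 in the second, while its controls lay at 6.28 to 6.47 in the first and 5.87 to 6.09 in the second. Exph5 fell 2.17-fold and 2.16-fold, also from a lower control level in replicates 5 to 8 (by 0.44, adjusted p = 0.03).

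Among the shared genes with the tightest intervals, chosen after their values were seen, Rhob, a small GTPase, rose by 1.06 in both sets with an interval of -0.33 to 0.33. Zfp58 fell by 0.75 and 0.73 (interval -0.22 to 0.25), and Pcgf3, a polycomb group protein, by 0.84 and 0.82 (interval -0.30 to 0.34). Pnrc2, a factor of messenger RNA decay, and the transcription factor Tfap4 were also in this group. Cflar, an inhibitor of caspase-8, was called lower by 0.72 and 0.74 on its named probe set, but its other 4 probe sets did not all go that way, and 1 of them gave 0.58 and 0.04.

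**Figure D3:**
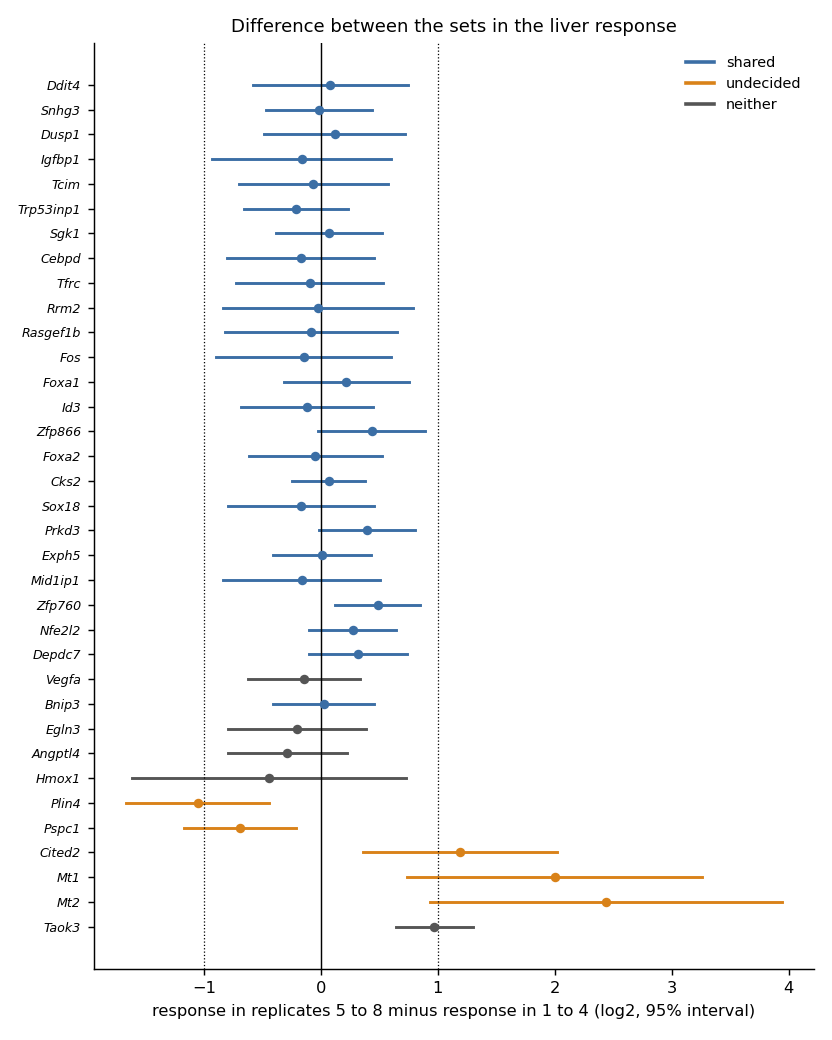
Difference between the sets in the response to reduced oxygen (replicates 5 to 8 minus replicates 1 to 4, log2 units) with its 95% confidence interval for shared genes (blue), undecided genes (orange) and other named genes (grey). Dotted lines mark 2-fold. The shared genes' intervals lie between the dotted lines by definition, and those of Mt1 and Mt2 run from 0.74 to 3.26 and from 0.94 to 3.94.

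Of the textbook genes of the hypoxia response, Bnip3, a mitophagy receptor, rose 1.61-fold and 1.63-fold, and its difference of 0.02 had an interval of -0.41 to 0.46. It left the shared definition only without hypoxia replicate 3, among 26 alternatives. Vegfa, the growth factor of blood vessels, rose 1.66-fold (0.73 ± 0.16, adjusted p = 0.0064) and 1.5-fold (0.58 ± 0.16, adjusted p = 0.031 by limma), just short of the fold required in the second set. Its call in replicates 5 to 8 was lost without any 1 of hypoxia replicates 6, 7 and 8 and control replicates 5, 6 and 8, with adjusted p of 0.0732 to 0.105.

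Egln3, a prolyl hydroxylase that marks hypoxia-inducible factors for degradation, was not called on its named probe set, with 0.21 and 0.01 on the log2 scale, and its interval of -0.79 to 0.39 stayed within 2-fold. Its second probe set, of nearly the same mean level (7.57 against 7.65), gave 0.65 and 0.51, with an interval of -0.79 to 0.50. Hmox1, the heme-degrading enzyme, was called in replicates 1 to 4 only (1.30 ± 0.39, adjusted p = 0.038, against 0.86 ± 0.39, adjusted p = 0.18). Hypoxia replicate 3 measured 10.12 there and the other 3 hypoxia arrays of the set 7.40 to 7.96, and without any 1 of control replicates 1, 2, 3, 4 and 6 the call was lost. Without hypoxia replicate 3, Hmox1 was called in replicates 5 to 8 too (adjusted p = 0.000375). All hypoxia arrays exceeded all controls of their set, and the interval of the difference, -1.61 to 0.72, reached beyond 2-fold.

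Angptl4, a secreted inhibitor of lipoprotein lipase, depended on the probe set. The named one gave 0.19 and -0.10 and was not called. Another, far dimmer probe set had a mean level of 4.97, against 11.06 for the named one. It gave 3.85 and 2.72, called in both sets (adjusted p = 1.62e-06 and 0.000107 by limma) when it was used. Its difference was -1.14 (interval -2.19 to -0.09). Epo, the hormone of red cell production, was below the filter and was not tested.

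Of the 30 tested genes on a list of hypoxia-inducible targets, 15 rose in replicates 1 to 4 and 11 in replicates 5 to 8, and 0 fell. The list's median response was 0.43 and 0.49, against -0.03 and -0.04 over all genes tested. Shared were 7 of them, the 4 named above (Ddit4, Igfbp1, Tfrc and Bnip3) and Adm, Kdm3a and Slc2a1. Adm, the vasodilator adrenomedullin, rose by 1.28 and 1.15, the histone demethylase Kdm3a by 1.15 and 1.09, and the glucose transporter Slc2a1 by 0.96 and 1.03. The share that rose was thus well above the 4.78% and 2.9% of all genes tested. Without hypoxia replicate 3 the second count was 17, against 15 in the first set, and with array weights it was 18 against 14, so the order of the 2 counts turned. The members named here and in the lists that follow were chosen after their values were seen. Pfkfb3, which raises the glycolytic activator fructose 2,6-bisphosphate, Ankrd37 and Bhlhe40 rose in both sets with nearly equal estimates (3.09 and 2.92, 2.68 and 2.75, 2.09 and 2.05), but were undecided because their arrays spread widely. For Ankrd37, hypoxia arrays 1, 2 and 5 measured 6.02, 5.88 and 5.61, and hypoxia arrays 3, 4, 6, 7 and 8 between 6.96 and 8.38.

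Genes that respond to glucocorticoids answered most as a list. Of 27 tested, 18 rose in replicates 1 to 4 and 17 in replicates 5 to 8, with medians of 1.35 and 1.13, and 10 were shared and 5 undecided. These counts too were far above the share of all genes that rose. Fkbp5, a cochaperone of the glucocorticoid receptor, rose by 1.33 and 1.25 with an interval of -0.78 to 0.63. Cebpb, a transcription factor of liver metabolism, rose by 1.24 in both sets (interval -0.47 to 0.48), and G6pc, the last enzyme of glucose release, by 1.28 and 1.13 (interval -0.70 to 0.41). Tat, which breaks down tyrosine, is a shared gene whose interval excluded 0: it rose by 1.35 and 0.76, with a difference of -0.59 (interval -0.94 to -0.25, adjusted p = 0.34). Its hypoxia arrays lay at 13.61 to 13.95 in both sets, while its controls lay at 12.42 to 12.56 in replicates 1 to 4 and 12.66 to 13.34 in replicates 5 to 8.

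Immediate early genes are transcribed within minutes of a signal. Of 28 tested, 16 rose and 1 fell in replicates 1 to 4, and 13 rose and 0 fell in replicates 5 to 8. Of them 7 were shared and 4 undecided, and the list's medians were 0.58 and 0.47. Over all genes 4.78% and 2.9% rose, and 7.66% and 6.67% fell. Jun, the partner of Fos, and Btg2, which slows the cell cycle, rose by 3.01 and 3.12 and by 2.78 and 3.02, both undecided. The transcription factors Atf3 and Klf10 were called only in replicates 1 to 4, Atf3 at 1.01 against 0.48 (interval of the difference -0.99 to -0.08) and Klf10 at 1.34 against 0.46 (interval -1.87 to 0.10).

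Insulin signalling and glucose metabolism also held shared genes. Of 21 genes on an insulin and Foxo list, 7 rose and 4 fell in replicates 1 to 4, 5 rose and 3 fell in replicates 5 to 8, and 5 were shared. Over all genes 4.78% and 2.9% rose, and 7.66% and 6.67% fell. The 5 rises of the second set became 3 without hypoxia replicate 6. Irs1, the insulin receptor substrate, fell by 1.29 and 0.86, and the transcription factor Foxo1 rose by 0.76 and 0.89. Ppp1r3c, which targets a phosphatase to glycogen, rose by 1.96 and 1.90, and Ass1, an enzyme of the urea cycle, by 1.76 and 1.84. Sesn3 and Aldoa were called in both sets below 1.5-fold with nearly equal estimates: Sesn3 fell by 0.38 in both sets (interval -0.24 to 0.24), and the glycolytic enzyme Aldoa rose by 0.55 in both (interval -0.44 to 0.44). The Aldoa call was lost in replicates 1 to 4 without any 1 of control replicate 2 and hypoxia replicates 3 and 4, and in replicates 5 to 8 without any 1 of that set's arrays other than hypoxia replicate 5.

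**Figure D4:**
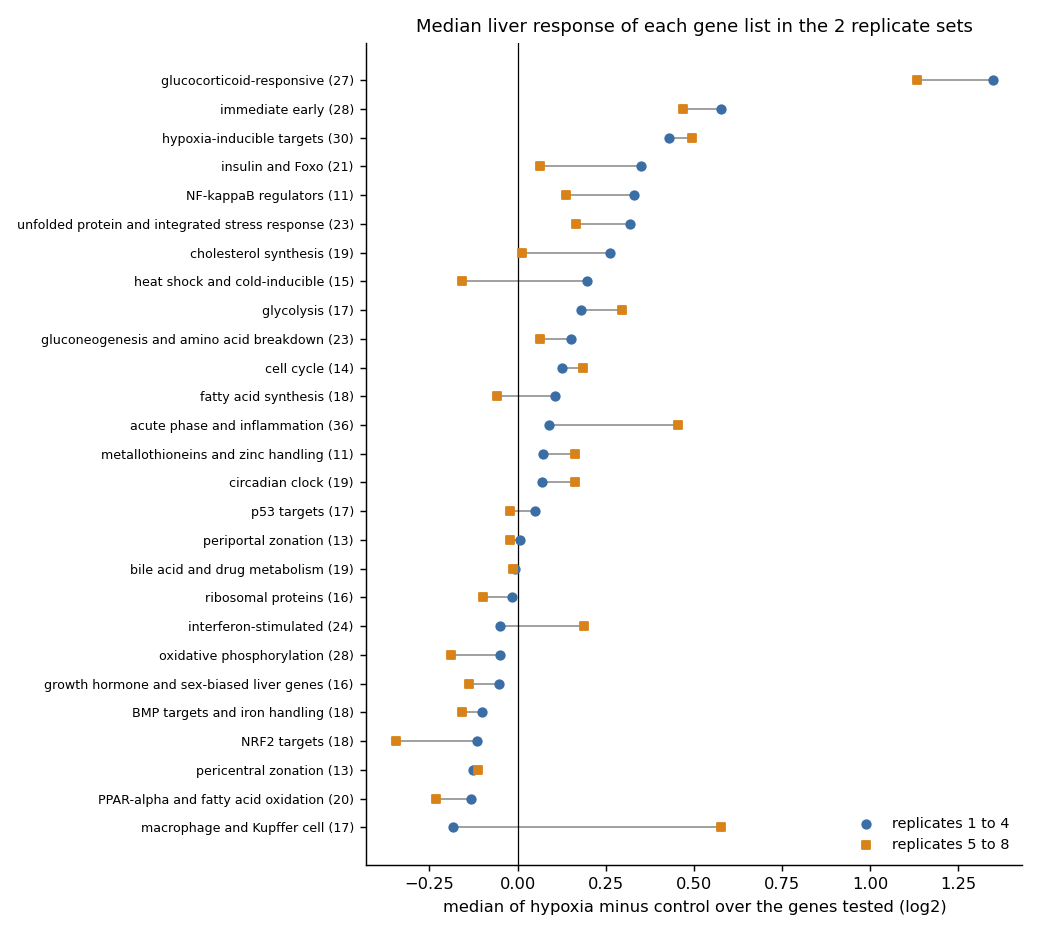
Median response to reduced oxygen over the tested genes of 26 response lists and of the macrophage markers, in replicates 1 to 4 (circles) and replicates 5 to 8 (squares), in log2 units with the number of genes tested in parentheses. Glucocorticoid-responsive, immediate early and hypoxia-inducible genes have the highest medians in replicates 1 to 4, and the macrophage markers have the widest gap, from -0.18 to 0.58.

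The undecided genes are those called in both sets, in the same direction and by at least 1.5-fold, whose interval left 2-fold. There were 52, of which 34 rose and 18 fell, and 34 had the larger estimate in replicates 1 to 4. For 15 of them the difference had an unadjusted p under 0.05, and for 0 an adjusted one. Those with the smallest p were chosen after their values were seen. Plin4, a lipid droplet protein, rose 6.17-fold and 2.98-fold: its controls lay at 5.03 to 5.39 and 5.20 to 6.03, and its hypoxia arrays at 7.59 to 8.03 and 6.62 to 7.70. The difference was -1.05 ± 0.29 (adjusted p = 0.34 by limma). Fam107a, a stress-induced actin-binding protein, rose 11.7-fold and 4.2-fold, and Mfsd2a, a lipid transporter, 8.34-fold and 3.83-fold. Other Fam107a probe sets gave smaller rises, of 1.86 and 1.19 and of 1.31 and 0.70 log2 units, with intervals of the difference that included 0.

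Metallothioneins bind zinc and copper and are induced by glucocorticoids, zinc and cytokines. Mt2 measured 8.37, 10.03, 11.28 and 11.20 in controls of replicates 1 to 4, and 7.92, 8.43, 7.07 and 8.07 in controls of replicates 5 to 8. Under reduced oxygen it measured 13.27, 13.28, 13.90 and 13.14 in the first set and 12.45, 13.83, 13.87 and 13.83 in the second. The sets differed in their controls, by -2.34 (adjusted p = 0.0039 by limma), while the hypoxia arrays covered much the same range. The rises were 9.06-fold and 49.1-fold, with a difference of 2.44 ± 0.71 (adjusted p = 0.35).

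Mt1 measured 10.01, 11.77, 12.64 and 12.57 in controls of replicates 1 to 4 and 9.84, 10.26, 9.40 and 10.11 in those of replicates 5 to 8, with hypoxia arrays at 14.04 to 14.67 and 13.66 to 14.63. Control replicate 1 was thus as low as the controls of the second set. The rises were 5.48-fold and 21.9-fold, and the difference of 2.00 ± 0.60 (adjusted p = 0.35) was called, of 26 alternatives, only without control replicate 1 (adjusted p = 0.0412, with a range up to 0.709). A second, dimmer Mt1 probe set (mean level 7.70 against 12.55) gave a difference of 0.50 (interval -0.37 to 1.37).

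Cited2, a coactivator-binding protein that restrains hypoxia-inducible factors, had a larger estimate in replicates 5 to 8. Its controls lay at 8.54 to 9.16 in all 8 arrays, and its hypoxia arrays at 9.78, 9.56, 10.81 and 10.22 in the first set and 10.46, 11.53, 11.51 and 11.93 in the second. The rises were 2.41-fold and 5.5-fold (difference 1.19 ± 0.39, adjusted p = 0.37), and a second probe set gave 1.06 and 2.36. Pspc1, a paraspeckle protein, went the other way, with 2.48-fold and 1.54-fold, while a second probe set gave only 0.25 and 0.10 log2 units.

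The undecided falls named here were larger in replicates 1 to 4. The Wnt receptor Fzd7 fell 3.99-fold and 1.96-fold, Rnf43, a Wnt target that removes such receptors from the cell surface, 3.58-fold and 2.07-fold, Dclk3 3.3-fold and 1.8-fold, Phlda1 6.93-fold and 3.15-fold, and Bik, a proapoptotic protein, 2.77-fold and 1.78-fold. A second, dimmer Fzd7 probe set (mean level 5.46 against 6.70) gave only -0.22 and -0.05 log2 units. Another Bik probe set gave -2.45 and -1.88. A further one gave -1.07 and -0.90, with a difference of 0.16 (interval -0.33 to 0.66). For Rnf43 and Dclk3 the control level was also lower in replicates 5 to 8, by 0.90 and 0.69 (adjusted p = 0.006 and 0.012 by limma).

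Taok3, a kinase of stress signalling, had the smallest p of the difference between sets, again chosen after its value was seen. It measured 9.44, 9.39, 9.52 and 9.52 in controls of replicates 1 to 4, and 8.68, 8.84, 8.71 and 8.74 under reduced oxygen, with no overlap. In replicates 5 to 8 controls measured 8.15, 8.72, 8.29 and 8.50, and hypoxia arrays 8.82, 8.73, 8.40 and 8.69, with overlap. The response was -0.72 ± 0.11 in the first set, where it was called, and 0.25 ± 0.11 in the second, where it was not (adjusted p = 0.17). The difference of 0.97 ± 0.16 missed the threshold (adjusted p = 0.125). It passed in 3 of 26 alternatives: after quantile normalization (adjusted p = 0.0431), and without hypoxia replicate 7 or control replicate 6, within a range of 0.0153 to 0.443 over all of them. Other Taok3 probe sets gave differences of 0.90 (interval 0.57 to 1.24), 0.68 (0.30 to 1.07) and 0.29 (-0.12 to 0.69). On the named probe set, the control level differed between the sets by -1.05 and the hypoxia arrays lay within 8.40 to 8.84 throughout.

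The same arrangement, with hypoxia arrays at one level and controls of replicates 5 to 8 already near it, was seen for Zmynd8, a chromatin reader, and Tlr3, a receptor of double-stranded RNA. Zmynd8 was called lower by 0.95 in replicates 1 to 4 and gave -0.08 in replicates 5 to 8, with controls at 8.77 to 9.20 and then 7.98 to 8.40, and all hypoxia arrays at 7.87 to 8.36. Its other probe sets gave smaller responses in replicates 1 to 4, of -0.51 to -0.21. Their differences were 0.19 to 0.39, and all but 1 of the intervals included 0. Tlr3 was called lower by 0.68 and gave -0.07, with controls at 5.44 to 5.65 and then 4.87 to 5.21. A second, dimmer Tlr3 probe set gave -0.13 and 0.06 (interval of the difference -0.13 to 0.51). On the named probe sets of Zmynd8 and Tlr3, neither difference passed (adjusted p = 0.27 and 0.34 by limma). Bag2, a cochaperone, rose by 0.96 in the first set and gave 0.22 in the second, from controls at 4.63 to 5.03 and then 5.43 to 5.61.

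For Dis3 and Phf8 the controls of the 2 sets overlapped and most hypoxia arrays did not. Dis3, a nuclease of the exosome, lay at 6.82 to 7.18 in all controls, at 7.42 to 7.50 under reduced oxygen in replicates 1 to 4 and at 6.77 to 7.03 in replicates 5 to 8 (difference -0.56 ± 0.12, adjusted p = 0.31 by limma). Phf8, a histone demethylase, measured 8.55, 8.27, 6.72 and 8.67 under reduced oxygen in the first set and 6.14 to 6.90 in the second, with all controls at 6.49 to 7.25. Hypoxia replicate 3 alone of its set lay among the controls. Without it the difference was called (-2.06, adjusted p = 0.00479, with a range up to 0.583 over the alternatives), and with it the difference was -1.61 ± 0.45 (adjusted p = 0.34).

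The largest differences between the sets were those of the acute phase genes Saa2, Orm2 and Lcn2, none of which was called. Lcn2, an iron-scavenging protein of hepatocytes and neutrophils, measured 7.15, 7.08, 13.81 and 11.83 under reduced oxygen in replicates 1 to 4, and 7.07, 13.81, 13.00 and 13.33 in replicates 5 to 8. Its controls measured 7.95, 7.31, 8.57 and 9.91, and 6.90, 6.35, 6.20 and 6.03. Hypoxia replicates 1 and 2 thus lay below all controls of their set, and hypoxia replicate 5 just above all controls of its set. Hypoxia replicates 3, 4, 6, 7 and 8 lay far above the controls of their sets. The responses were 1.53 ± 1.44 (adjusted p = 0.55) and 5.43 ± 1.44 (adjusted p = 0.026), and the difference of 3.90 ± 2.03 had an interval of -0.39 to 8.20. The call in replicates 5 to 8 was lost without any 1 of hypoxia replicates 6, 7 and 8 and control replicates 6, 7 and 8, and with a trended prior (adjusted p = 0.0622).

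Orm2, an orosomucoid, showed the same split, with hypoxia arrays at 7.49, 7.22, 13.48 and 11.02 and at 8.09, 14.02, 12.83 and 13.34. Its controls were higher in the first set (8.35 to 10.19) than in the second (6.65 to 7.01), and its responses were 0.22 ± 1.24 and 5.21 ± 1.24, the second called except without any 1 of hypoxia replicates 6, 7 and 8. The interval of its difference, 1.30 to 8.69, excluded 0 (adjusted p = 0.4 by limma). The serum amyloid genes Saa1 and Saa2 are near-identical and their probe sets may read both. Saa1 measured 13.39, 13.87, 13.57 and 14.02 in controls of the first set and 12.45, 11.48, 12.19 and 11.58 in those of the second, and 11.98, 12.16, 14.61 and 14.16, then 13.47, 14.82, 14.73 and 14.74, under reduced oxygen. In the first set the control arrays lay between 2 lower and 2 higher hypoxia arrays, and in the second all hypoxia arrays were higher. The differences between the sets were 3.00 ± 0.68 for Saa1 (interval 1.56 to 4.44) and 5.19 ± 1.31 for Saa2 (interval 2.41 to 7.96). Both intervals excluded 0, and both adjusted p were 0.34 by limma. The rise in replicates 5 to 8 was called in all alternatives that gave a value, 26 for Saa1 and 25 for Saa2.

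**Figure D5:**
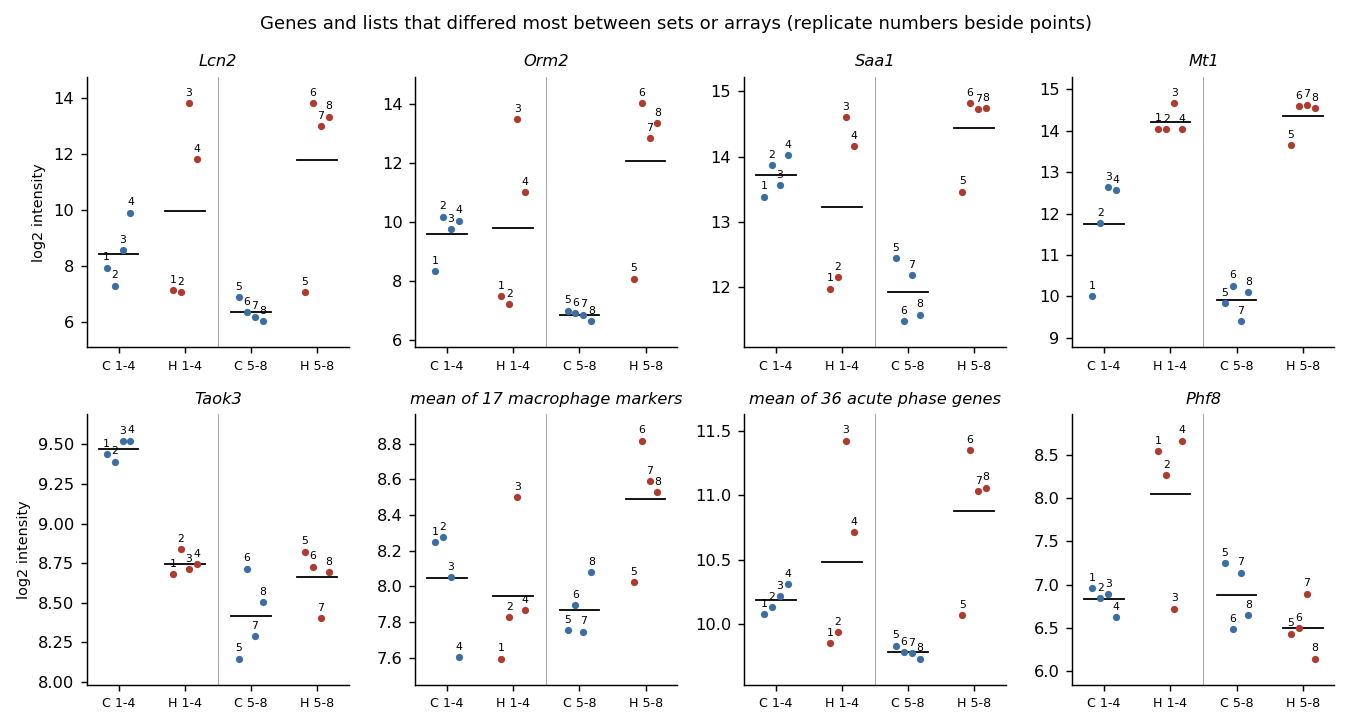
Log2 intensity in each liver array, with its replicate number, of 6 genes and as the mean of 2 gene lists, for control (C, blue) and reduced oxygen (H, red) by replicate set, with a line at each mean. For Lcn2, Orm2 and the acute phase mean, hypoxia replicates 1 and 2 lie below the controls of their set, and 3 and 4 above them. Hypoxia replicate 5 lies above the controls of its set, but by less than 6, 7 and 8. For Taok3 the controls of replicates 5 to 8 lie near the hypoxia arrays.

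Of 36 acute phase and inflammation genes tested, 2 rose in replicates 1 to 4 and 15 in replicates 5 to 8, and 0 fell. In the first set this is close to the 4.78% of all genes that rose, and in the second well above 2.9%. The 2 that rose in the first set, Cebpd and the interleukin-1 receptor Il1r1, were shared. The median response was 0.09 and 0.46, the difference was above 0 for 28 of the 36, and 8 had an unadjusted p under 0.05, all of them higher in replicates 5 to 8. Over all genes 4.66% were higher at that p. The list's mean log2 intensity was 9.85, 9.94, 11.43 and 10.71 in the hypoxia arrays of the first set and 10.07, 11.35, 11.03 and 11.06 in those of the second, over controls at 10.08 to 10.31 and 9.73 to 9.83. The count of 15 depended on single arrays: it was 5 without any 1 of hypoxia replicates 6, 7 and 8, 8 or 9 without control replicate 6, 7 or 8, and 21 without hypoxia replicate 3 or 5. The 8 genes of unadjusted p under 0.05 became 21 without hypoxia replicate 3 and 16 without hypoxia replicate 5. With array weights 25 rose in the second set.

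Saa4, Hp and Fgl1 are examples of acute phase genes called in replicates 5 to 8 only. They do not stand for the whole list, of which 15 of 36 rose in that set. Saa4, a constitutive serum amyloid, rose by 1.00 in replicates 5 to 8 (12.50 to 12.84 in controls, 13.36 to 13.85 under reduced oxygen) and was not called in replicates 1 to 4 (0.35, adjusted p = 0.11). Haptoglobin (Hp), which binds free hemoglobin, rose by 0.43 in the second set and gave 0.01 in the first. Fgl1, a secreted hepatocyte protein, rose 2.82-fold in the second and gave 0.03 log2 units in the first, where its hypoxia arrays ran from 11.76 to 13.93. The Saa4 call held in all 26 alternatives. The Hp call was lost without any 1 of the second set's arrays other than hypoxia replicate 5, and the Fgl1 call without any 1 of hypoxia replicates 6, 7 and 8 and control replicates 7 and 8.

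Markers of macrophages and Kupffer cells had the largest median difference between the sets of the lists examined. All 17 genes tested had a difference above 0, 12 with an unadjusted p under 0.05 (4.66% of all genes had a higher value at that p), and 0 were called in the difference. The median response was -0.18 in replicates 1 to 4 and 0.58 in replicates 5 to 8, and the median difference 0.81, against -0.02 over all genes. In the first set 0 of the 17 were called, and in the second 2 rose, the complement gene C1qc (0.78) and the scavenger receptor Cd163 (0.81). The 2 calls became 0 without any 1 of hypoxia replicates 6, 7 and 8 and control replicates 5 and 7, 1 without control replicate 6, 8 without control replicate 4 or hypoxia replicate 3, 11 without hypoxia replicate 5 and 6 without hypoxia replicate 1. They became 15 with array weights, 7 after quantile normalization and 4 with the replicate number as a block. Without control replicate 4, 2 of the 17 also fell in the first set. In bulk tissue, more macrophages and more RNA per macrophage cannot be told apart.

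The macrophage markers varied among controls as well. Their mean log2 intensity was 8.25, 8.28, 8.05 and 7.60 in controls of replicates 1 to 4 and 7.75, 7.89, 7.75 and 8.08 in those of replicates 5 to 8. Under reduced oxygen it was 7.59, 7.83, 8.50 and 7.87 in the first set and 8.02, 8.82, 8.59 and 8.53 in the second. Cd5l, a secreted Kupffer cell protein, measured 10.81, 10.79, 10.81 and 10.05 and then 9.96, 10.23, 10.07 and 10.54 in controls, and 9.63 to 10.96 and then 10.43 to 11.50 under reduced oxygen. Its difference of 1.26 ± 0.36 did not pass (adjusted p = 0.35), and those of the Kupffer cell receptors Vsig4 (1.04) and Clec4f (0.81) did not either (adjusted p = 0.37 for both). The summed linear intensity of the 17 markers ran from 5349 to 9491 in controls and 5146 to 9972 in hypoxia arrays of the first set, and from 5942 to 7768 and 7375 to 12807 in the second. Its part in the acute phase difference was not tested.

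Of the 11 neutrophil markers tested, 0 were called in replicates 1 to 4 and 3 rose in replicates 5 to 8 (Lcn2, Prtn3 and S100a9), against 2.9% of all genes, and 0 differed at an unadjusted p under 0.05. The 3 became 0 with a trended prior or without any 1 of hypoxia replicates 6, 7 and 8 and control replicates 6, 7 and 8, 1 without control replicate 5, 2 without control replicate 1, 2 or 3, 5 without hypoxia replicate 5 and 6 with array weights. S100a9, a calcium-binding protein of neutrophils, measured 5.47, 5.95, 8.36 and 6.21 and then 5.94, 8.62, 7.35 and 7.30 under reduced oxygen, with controls at 5.29 to 5.85. Ltf, a neutrophil granule protein, gave -0.06 and 0.07 and was not called, and Mpo, Ly6g, Camp, Mmp8 and Retnlg were not among the genes tested. The part of these markers in the acute phase responses was not tested.

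Interferon-stimulated genes held both kinds of result. Of 24 tested, 1 rose and 3 fell in the first set and 1 rose and 2 fell in the second, shares near those of all genes. The rise of 1 in the second set became 4 without hypoxia replicate 5, 3 without hypoxia replicate 3 or after quantile normalization, 2 without control replicate 4 and 7 with array weights. The shared 3 were the transcription factors Irf1, lower by 1.43 and 1.03, and Stat2, lower by 0.80 and 0.88, and the deubiquitinase Usp18, higher by 0.83 and 1.12. The difference was above 0 for 22 of the 24, and 8 were higher in replicates 5 to 8 at an unadjusted p under 0.05. Over all genes 4.66% were higher at that p. Among the 8 were Irf1 and Oasl2, of which Oasl2 gave -0.33 and 0.44 and was called in neither set. The list's median response was -0.05 and 0.19.

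Some metabolic lists had lower estimates in replicates 5 to 8. Of 19 cholesterol synthesis genes, 3 rose and 0 fell in the first set and 1 rose and 1 fell in the second. Their medians were 0.26 and 0.01. For 6 of them the response was lower in replicates 5 to 8 at an unadjusted p under 0.05, against 5.33% of all genes. Over all genes 4.78% and 2.9% rose, and 7.66% and 6.67% fell. The 3 rises became 1 with the replicate number as a block or without hypoxia replicate 3, 2 without control replicate 2, 3 or 6 or hypoxia replicate 1, and 5 without control replicate 4. Both calls of the second set were lost without any 1 of its arrays other than hypoxia replicate 5, without which there were 3 rises. Fdps, an enzyme of the isoprenoid steps, rose by 0.62 in the first set and gave 0.06 in the second, and its call was lost in 9 of 26 alternatives, among them those without control replicate 2, 3 or 6 or hypoxia replicate 1, 3 or 4. Of 28 genes of oxidative phosphorylation, 0 were called in the first set and 7 fell in the second, by 0.21 to 0.33 log2 units. Over all genes 7.66% and 6.67% fell. All 28 intervals of the difference lay within 2-fold, as did those of 96.1% of all genes tested. The 7 became 0 without hypoxia replicate 6 or control replicate 6, 1 without hypoxia replicate 7 or 8 or control replicate 8, 2 without control replicate 7, with the replicate number as a block or after quantile normalization, 4 without control replicate 5, 11 without hypoxia replicate 5 and 21 with array weights. Of 15 heat shock and cold-inducible genes, 1 rose and 0 fell in the first set, and 1 rose and 2 fell in the second. Their medians were 0.20 and -0.16, and the difference was above 0 for 1 of the 15. For 4 of them the response was lower in replicates 5 to 8 at an unadjusted p under 0.05, against 5.33% of all genes. Cirbp, a cold-inducible RNA-binding protein, was shared (1.17 and 0.91). The chaperone Hspa8 fell by 0.68 in the second set and gave -0.07 in the first. Both falls of the second set, Hspa8 among them, were lost without any 1 of hypoxia replicates 7 and 8 and control replicate 7.

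Of 19 circadian clock genes, 4 rose and 0 fell in replicates 1 to 4, and 3 rose and 2 fell in replicates 5 to 8. Their medians were 0.07 and 0.16. Over all genes 4.78% and 2.9% rose, and 7.66% and 6.67% fell. Over the alternatives the second set gave 1 to 5 rises and 1 to 4 falls. The 2 falls were Nr1d1 and Nr1d2, repressors of the circadian loop, by 1.37 and 1.17. Neither was called in replicates 1 to 4 (-0.30 and -0.06). The Nr1d1 call held in all 26 alternatives and the Nr1d2 call in 12 of them, being lost among others without any 1 of hypoxia replicates 1, 6, 7 and 8 and control replicates 1, 3, 6, 7 and 8. Per1, a clock gene that glucocorticoids induce, rose in both sets, by 1.63 and 0.94, and was undecided, with the second call lost without hypoxia replicate 7 or 8 or control replicate 6. Ribosomal protein genes gave 0 calls of 16 in either set, though 3 fell in the second with array weights. All 16 intervals lay within 2-fold, as did those of 96.1% of all genes tested.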

How the data were processed

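The values deposited by the authors are linear intensities, 1 per probe set. Per the submitters' processing notes, RMA and limma were used, with no version given. The intensities were taken to log2 without an offset. Probe sets with 1 gene symbol were kept (34958 of 45101), a gene was represented by its probe set of highest liver mean, and the dimmest 30% of genes by that mean were left out. Limma 3.58.1 in R 4.3.3 (lmFit and eBayes, two-sided, 1 mean per group and set, no covariate) gave every contrast, with Benjamini-Hochberg adjustment over all genes tested, and was tested on simulated data. The number of arrays, 4 per group and set, limits the precision. The labels do not say that arrays come from separate mice, so p-values measure only the spread between these samples. The comparison, gene lists and rule for named genes were chosen with earlier results of these data known. The rule named the 12 rises and 12 falls of largest shared response, called differences (of which there were none) and 9 genes known for hypoxia or inflammation. All others were chosen after their values were seen, also where this is not said beside them. Of 773 list entries, 688 had a named probe set and 622 were tested. Same-numbered control and hypoxia arrays deviated together with r of -0.037 to 0.299, so no pairing was assumed. Alternatives covered normalization, centring, an offset, probe set choice, the dim-gene filter, the variance model, array weights, a replicate block and leaving out each array.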

Additional observations from a re-analysis of the deposited data

Results flagged for a closer look

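In 60 named genes, each of the 4 groups of 4 arrays was checked for 1 array far from the other 3, which is 240 checks. The check marked 14, and chance marks about 1 group in 20. Hypoxia replicate 5 lay below the other 3 hypoxia arrays of its set for Lcn2 (7.07), Saa1 (13.47), Saa2 (11.50), Mt1 (13.66) and Mt2 (12.45). Hypoxia replicate 3 lay above its set for Vegfa (9.53) and Mt1 (14.67), and hypoxia replicate 4 below its set for Tfrc (10.25) and Cyp20a1 (8.63), a gene named after its value was seen. Hypoxia replicate 8 lay above its set for Slfn2 (5.87, against 5.84 in the other 3). Among controls of replicates 5 to 8, replicate 5 was low for Mid1ip1 (8.40) and Pilra (5.65), replicate 7 high for Vegfa (8.88) and replicate 8 low for Saa3 (7.21).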

How the results depend on the processing

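Over 26 alternatives, 16 of which leave out 1 array, the difference between the sets called 0 genes in 21. It called 1 after quantile normalization, and between 0 and 2 when 1 array was left out. Calls in replicates 5 to 8 ranged from 571 to 1878 with 1 array left out, around 1219, and reached 3175 with array weights. Calls in replicates 1 to 4 stayed within 1.5 times of 1584. Shared responses numbered 177 to 261 in all alternatives but the narrower interval of 1.5-fold, which left 90. Of the 229 shared genes, 162 kept that status with an offset of 32 and 156 of 225 with the mean of probe sets. With the replicate number as a block, calls numbered 1330 and 1053, shared responses 238 (224 of the 229 kept) and calls of the difference 0, and 2 of 8 controls correlated best with the hypoxia array of their own number. Angptl4 in replicates 5 to 8 changed sign to 1.31 with the mean of probe sets and to 2.72 with plain probe sets, because another probe set then enters. A comparison with spleen at the genes called in liver, and its alternatives, had no gene to run on. Few arrays and wide spread between them limit genes such as Lcn2, whose interval spans over 8 log2 units.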
